A study of Mus musculus with 13 samples.

Results

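The lecticans are 4 related chondroitin sulfate proteoglycans of the extracellular matrix, aggrecan (Acan), brevican (Bcan), neurocan (Ncan) and versican (Vcan). Their transcripts were followed here together with those of the tenascins C and R (Tnc, Tnr), the link proteins Hapln1, Hapln2 and Hapln4, and the receptor-type phosphatase Ptprz1. These 10 genes were taken by symbol from the 55291 gene symbols of the count files, and all 10 were present. RNA was sequenced from 13 CA1 regions, each cut with a scalpel from an individual entorhino-hippocampal tissue culture of wildtype C57BL/6 mice. Cultures were prepared at postnatal day 4 to 5 and had matured for 18 days or more before use. The groups are 5 controls without a lesion, 4 cultures after Schaffer collateral lesion (SCL), a cut through the CA3 axons that run to CA1, and 4 after entorhinal cortex lesion (ECL), which removes the entorhinal input. Lesioned cultures were collected 3 days after the cut. The cultures carried no transgene, and all groups shared the same strain, age and medium.

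Lecticans bind hyaluronan with their N-terminal ends, where a link protein stabilizes the bond, and tenascins with their C-terminal ends. The lattice that results fills the space around cells and synapses and condenses into perineuronal nets around some neurons, in hippocampus and cortex mostly parvalbumin interneurons, where aggrecan is the core component. Astrocytes and cells of the oligodendrocyte lineage make much of the lectican in brain, and neurocan and brevican are known as matrix components that astrocytes deposit near central nervous system lesions.

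Library totals ran from 14371152 to 56786613 counts, with 14371152 to 21092612 in controls, 16405517 to 56786613 after SCL and 20210165 to 46449937 after ECL. The titles name CA1 as the tissue while the protocol text speaks of the dentate gyrus. Summed marker levels in TPM (a depth-scaled level per gene length) were 102 to 236 for 4 CA1 genes in each library, 3.09 to 9.03 for 3 CA3 genes and 3.13 to 7.93 for 3 dentate granule cell genes. Sex, read from the column headings, was male in 2 of 5 controls, 1 of 4 SCL cultures and 3 of 4 ECL cultures. No batch or date is given.

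In non-lesioned CA1, neurocan and Ptprz1 were the most abundant transcripts of the group on the TPM scale. Ncan stood at 115 ± 13.8 TPM (SD, n = 5) and Ptprz1 at 86.4 ± 12.0 TPM, with overlapping ranges. Bcan followed with 29.1 ± 8.93 TPM, and its range overlapped that of the next gene, Hapln1 (18.4 ± 2.00 TPM). Hapln1 and Hapln4 (16.8 ± 3.5 TPM) overlapped as well. The matrix genes Tnr (6.94 ± 1.14 TPM), Vcan (3.86 ± 1.00 TPM) and Tnc (3.82 ± 0.743 TPM) formed the next tier. Hapln2 (0.586 ± 0.592 TPM) and Acan (0.534 ± 0.216 TPM) were lowest. Gaps without overlap in controls lay between Ptprz1 and Bcan, between Hapln4 and Tnr, and between Tnc and Hapln2. After SCL, Ptprz1 (80.7 ± 15.6 TPM, n = 4) and Ncan (78.4 ± 14.0 TPM) were closest to each other, and after ECL the same pair stood at 69.1 ± 7.55 and 83.7 ± 25.2 TPM, overlapping both times.

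**Figure D1:**
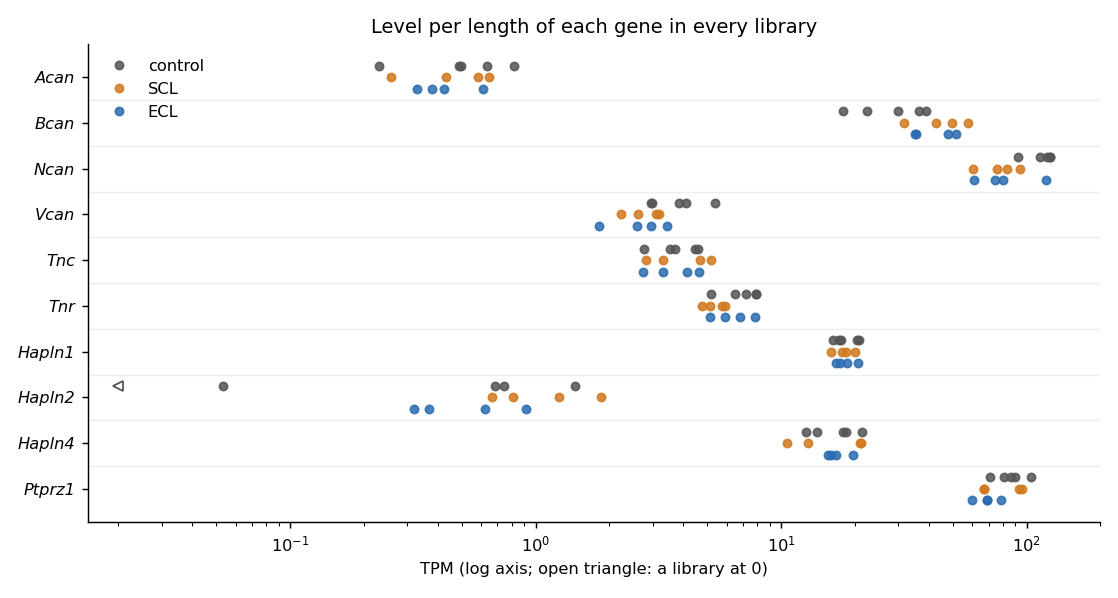
TPM on a log axis for each of the 10 genes, where each point is a library, grey for control (n = 5), orange for SCL (n = 4) and blue for ECL (n = 4), and an open triangle marks a control library without a Hapln2 count. Levels span from under 1 TPM for Acan in all 13 libraries to over 100 TPM for Ncan in most controls, and the tiers keep their places after both lesions.

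After SCL, brevican rose and neurocan fell, and after ECL brevican rose. Each lesion was compared with the 5 controls by edgeR's quasi-likelihood test over all genes whose mean normalized count reached 150, and an adjusted p-value (Benjamini-Hochberg) under 0.05 is called a change. Of the 10 genes, 8 passed that minimum in each comparison, and Acan and Hapln2 did not. After SCL, 1 of the 8 was higher and 1 lower, where 24.9% of all 11438 genes tested were called (13.1% higher and 11.8% lower). After ECL, 1 of the 8 was higher and 0 lower, where 27.8% of 11212 genes were called (15.2% higher and 12.5% lower). At an unadjusted p under 0.05 Bcan and Ncan passed after each lesion, beside 38.8% of all genes after SCL and 40.3% after ECL. As a group these genes were called no more often than all genes were (2 of 8 and 1 of 8). The median log2 fold change of the 8 was -0.04 after SCL and -0.02 after ECL, beside 0.01 and -0.01 over all genes tested. Each library is a separate culture, and the labels do not say whether cultures share an animal, so that p-values measure the spread between cultures. In bulk tissue, fewer cells of a type and less RNA per cell cannot be told apart.

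**Figure D2:**
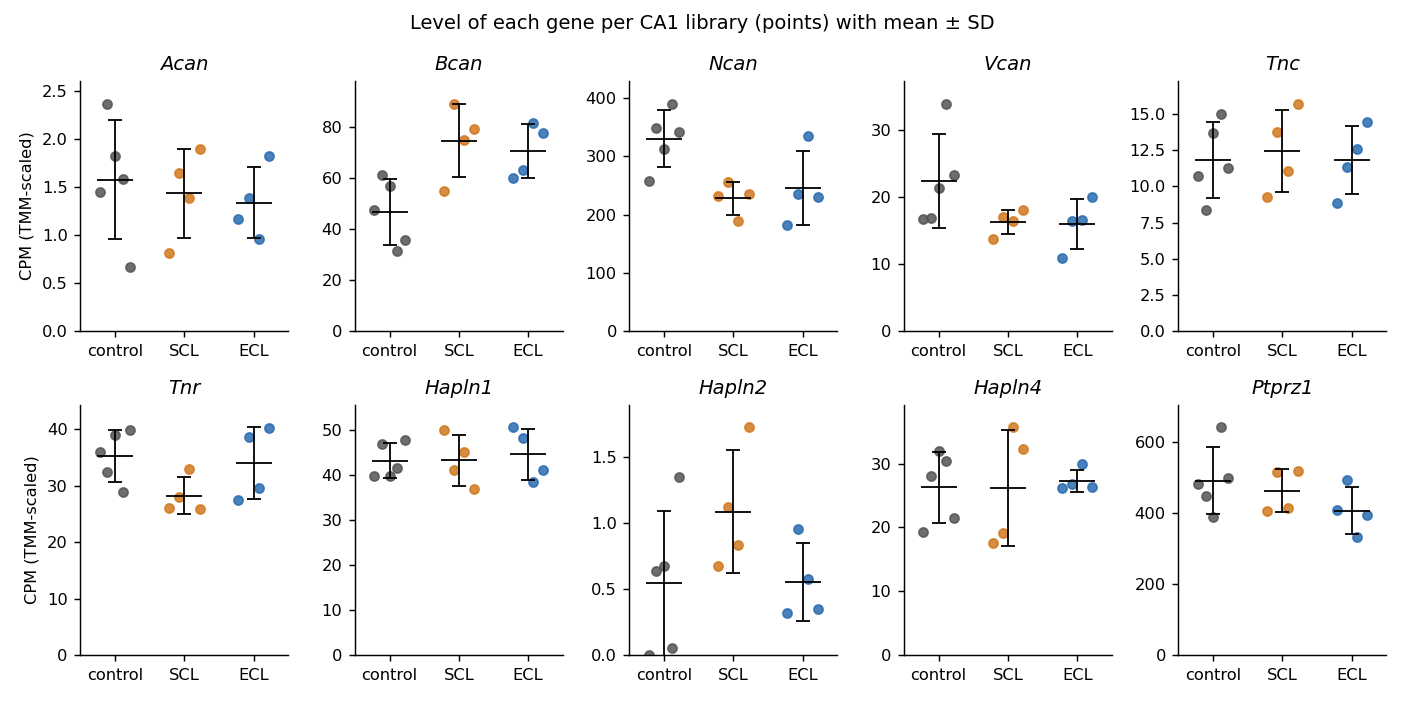
CPM (counts scaled to library depth with TMM factors) of the 10 genes in panels with separate axes from 0, a point per library, with mean and SD (n = 5, 4 and 4); the lower SD bar of Hapln2 in controls is cut at 0. The SCL and ECL points of Bcan lie mostly above the controls, and the SCL points of Ncan lie below all of them.

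Brevican, the smallest lectican and a component of the matrix around synapses, is encoded on the minus strand of chromosome 3 from 87987531 to 88000230 of GRCm38. Bcan stood at 47.6, 61.2, 56.8, 31.5 and 35.7 CPM in control cultures 1 to 5. It stood at 54.8, 88.9, 74.9 and 79.2 CPM in the 4 SCL cultures. In the 4 ECL cultures it was 60.0, 62.9, 81.4 and 77.7 CPM. In each lesion group 3 of 4 cultures lay above every control, while SCL replicate 1 and ECL replicate 1 fell inside the control range, and controls 4 and 5 were the lowest of all 13. Against controls, SCL gave a fitted log2 fold change of 0.67 (standard error 0.21, 95% interval 0.21 to 1.13, adjusted p = 0.0352, edgeR), a 1.59-fold rise. ECL gave 0.60 (standard error 0.20, 95% interval 0.18 to 1.03, adjusted p = 0.0372, edgeR), a 1.52-fold rise. These calls stood close to the threshold. Leaving out any of control replicates 1, 4 and 5 or SCL replicates 2, 3 and 4 ended the SCL call (adjusted p 0.0563 to 0.106 in edgeR, log2 fold change 0.55 to 0.68), and leaving out any of control replicates 1, 4 and 5 or ECL replicates 2, 3 and 4 ended the ECL call (0.0548 to 0.102), as did a term for sex (log2 fold change 0.49, adjusted p = 0.0927).

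Markers of astrocytes went in both directions. The marker counts below stand beside 13.1% of all genes called higher and 11.8% lower after SCL, and 15.2% and 12.5% after ECL. Of 10 astrocyte genes, 4 were higher after SCL (Gfap, Aqp4, Aldh1l1 and Aldoc) and 0 lower, while after ECL 3 were higher (Gfap, Aqp4 and Aldoc) and Sox9 was lower; Aqp4 and Aldh1l1 were picked for naming after their values were seen. Gfap, the intermediate filament of reactive astrocytes, had 1894 ± 115 CPM in the 5 controls (SD), against 3419 ± 305 in SCL and 3122 ± 247 in ECL cultures (n = 4 each). Its log2 fold changes were 0.85 and 0.73 (adjusted p = 0.00243 and 0.00202, edgeR). Aldoc, a glycolytic enzyme of astrocytes, had log2 fold changes of 1.59 and 1.33, and Sox9, an astrocyte transcription factor, of -0.55 (adjusted p = 0.0645) and -1.03. The other genes did not pass, among them the glutamate transporters Slc1a2 (-0.41 and -0.39) and Slc1a3 (-0.39 and -0.42) and the gap junction gene Gja1 (0.18 and -0.80), all 3 named after their values were seen. The list had a median of 0.33 after SCL, with 6 of 10 estimates above 0, and of -0.14 after ECL, with 5 of 10. The 10 genes summed to 3674 to 4638 TPM in controls, 4574 to 6702 after SCL and 4385 to 5804 after ECL. Per Gfap transcript, Bcan was similar in the groups, with a TPM ratio of 0.0253 ± 0.00605 in controls, 0.0228 ± 0.00481 after SCL and 0.0237 ± 0.00471 after ECL. Per transcript of Slc1a2 it was 0.0309 to 0.0853 in controls and higher without overlap after SCL (0.0975 to 0.138) and ECL (0.0964 to 0.133). Per Aldoc transcript Bcan went the other way on average, with overlap, at 0.0583 ± 0.0134 in controls, 0.0435 ± 0.0262 after SCL and 0.0417 ± 0.0201 after ECL. The ratio of Ptprz1, which was not called, to Slc1a2 was also higher without overlap after SCL (0.160 to 0.179 in controls, 0.206 to 0.231 after SCL). After ECL that ratio overlapped the controls (0.151 to 0.218). The level of Ptprz1 itself did not rise after SCL, with log2 fold changes of -0.08 for Ptprz1 and -0.41 for Slc1a2. How often ratios of other genes to Slc1a2 separate in this way was not examined. Of 6 markers of oligodendrocyte precursors, Gpr17 alone was called, and it was higher after both lesions (log2 fold changes 1.36 and 0.92). Of 9 genes of mature oligodendrocytes, Mbp, Mog and Opalin were higher after both. Microglia genes, which brain lesions are known to raise, summed to 292 to 416 TPM in controls, 820 to 1397 after SCL and 904 to 1070 after ECL. Of the 8, 8 were higher after SCL and 4 after ECL, among them C1qa (log2 fold changes 2.68 and 2.97) and Aif1 (1.18 and 0.91). The endothelial receptor gene Flt1, the 1 of 5 endothelial genes over the minimum, was lower after both (-0.91 and -0.85). Of the 4 CA1 genes, Pou3f1 was lower after SCL (-0.82, adjusted p = 0.00669 in edgeR) and at 0.02 after ECL (adjusted p = 0.962). The part of these cell types in the brevican result was not tested.

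Neurocan, a lectican rich in developing brain, is encoded on the minus strand of chromosome 8 from 70093085 to 70120873. Ncan stood at 258, 348, 313, 389.8 and 341 CPM in the controls. It stood at 231, 255, 189 and 235 CPM after SCL. After ECL it was 183, 235, 335 and 230.1 CPM. The SCL cultures all lay below the lowest control, by a gap of a few CPM between control 1 and SCL replicate 2, whereas ECL replicate 3 lay amid the controls and the other ECL cultures below them. For SCL the estimate was a log2 fold change of -0.53 (standard error 0.15, 95% interval -0.85 to -0.22, adjusted p = 0.0191, edgeR), which is 0.690 times the control level. Groups that do not overlap were also found for 11.5% of all genes tested on the lower side and 12.1% on the higher side after SCL, and for 12.2% and 12.8% after ECL. After ECL the estimate was -0.42 (standard error 0.18, 95% interval -0.80 to -0.04), with an adjusted p = 0.0943 that missed the threshold. Without ECL replicate 3 the ECL estimate was -0.60 (adjusted p = 0.0177, edgeR), and without SCL replicate 3 the SCL estimate was -0.45 (adjusted p = 0.0646). With TMM factors taken from all symbols, which moved the median log2 fold change of all genes tested to 0.21 after SCL, the SCL estimate was -0.33 (adjusted p = 0.129).

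The stretches of DNA just upstream of the start sites of the 2 called genes are shown because brevican and neurocan moved in opposite directions. They are the 250 bases before the RefSeq start on GRCm38.p6, written 5′ to 3′ on the gene's strand. Bcan is chr3:88000357-88000606 and Ncan is chr8:70120845-70121094, both on the minus strand. The last bases of the Ncan window fall inside the GENCODE gene model. The Bcan window stops short of its GENCODE gene model, which starts at 88000230 on that strand, and the bases between were not examined. Capitals mark matches to TATAAA (the TATA box) or GGGCGG (the GC box) on either strand.
Bcan: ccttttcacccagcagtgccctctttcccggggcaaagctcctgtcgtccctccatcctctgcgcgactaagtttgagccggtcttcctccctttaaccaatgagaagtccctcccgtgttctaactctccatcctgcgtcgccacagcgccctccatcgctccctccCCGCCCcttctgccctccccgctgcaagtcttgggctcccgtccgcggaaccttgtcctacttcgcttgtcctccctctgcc
Ncan: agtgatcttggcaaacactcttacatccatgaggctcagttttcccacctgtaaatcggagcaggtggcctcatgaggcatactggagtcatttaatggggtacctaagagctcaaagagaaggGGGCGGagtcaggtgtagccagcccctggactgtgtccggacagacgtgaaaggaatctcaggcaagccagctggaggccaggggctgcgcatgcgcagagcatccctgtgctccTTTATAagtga
The Bcan window held 16 CG dinucleotides and 62.0% G and C, more CG than 74.6% of promoters, while the Ncan window held 6 CG, the median of all promoters, and 54.4% G and C. Bcan had 1 match to the GC box and 0 to the TATA box, and Ncan 1 of each. The TATA match of Ncan is on the opposite strand, close to the end of the window. Whether any of these matches acts in the promoter was not tested. Over 32851 promoter windows of the same length, 32.7% held a GC box and 12.4% a TATA box. The AP-1 motif TGANTCA (in 6.7% of windows), the STAT motif TTCNNNGAA (in 7.0%) and the EGR motif GCGTGGGCG (in 0.5%) had 0 matches in either window.

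Versican, the largest lectican and a substrate of ADAMTS proteases, is encoded on chromosome 13 from 89655312 to 89742509. Vcan stood at 16.7, 16.8, 21.3, 33.9 and 23.3 CPM in controls. It was 13.7, 17.0, 16.4 and 18.0 CPM after SCL. The ECL cultures had 11.0, 16.5, 16.6 and 19.9 CPM. Control 4 was far above the rest, and the groups overlapped. The log2 fold changes of -0.46 (95% interval -0.92 to 0.01, adjusted p = 0.138) and -0.48 (95% interval -1.01 to 0.05, adjusted p = 0.161) did not pass the edgeR test, and both intervals hold 0 as well as falls larger than that estimated for Ncan. With gene length and GC content offset, the Vcan estimates were nearer 0, at -0.11 after SCL and -0.16 after ECL.

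Aggrecan, encoded on chromosome 7 from 79053483 to 79115099, was the scarcest lectican. Acan had 10 to 45 counts per control library, 22 to 96 after SCL and 20 to 52 after ECL. Scaled to depth it stood at 1.45, 2.37, 1.82, 1.58 and 0.67 CPM in controls. After SCL it was 0.82, 1.65, 1.39 and 1.90 CPM. In the ECL cultures it reached 1.17, 1.39, 0.96 and 1.83 CPM. The groups overlapped throughout. With edgeR's own filter in place of the mean minimum, its log2 fold changes were -0.08 (standard error 0.46) and -0.17 (standard error 0.46), with adjusted p-values of 0.924 and 0.834, so that a change of the size seen for Bcan was not detectable at this depth. Perineuronal nets surround interneurons, and 4 of 8 inhibitory neuron genes were lower after each lesion, 0 higher, beside 11.8% and 12.5% of all genes tested: Gad1, Kcnc1, Kcnc2 and Erbb4 after SCL, and Gad1, Slc32a1, Kcnc2 and Erbb4 after ECL (Kcnc1 and Kcnc2 were picked for naming after their values were seen). Erbb4, the neuregulin receptor of interneurons, had log2 fold changes of -0.64 after both. Its call held in 7 of 12 other settings after SCL and in 8 of 12 after ECL. Kcnc1 and Kcnc2 stood close to the threshold after SCL (adjusted p = 0.0480 and 0.0454, edgeR). Pvalb, which encodes parvalbumin and marks the cells that most nets surround, was at 0.04 and 0.15 (adjusted p = 0.911 and 0.618, edgeR), and Gad2 (-0.09 and -0.12) and Lhx6 (-0.06 and -0.26) did not pass either (these 3 were also named after their values were seen). The SCL call of Gad1, a GABA-synthesizing enzyme (log2 fold change -0.41, adjusted p = 0.0353 in edgeR) held in 3 of 12 other settings. The sum of the 8 genes overlapped between groups, at 513 to 802 TPM in controls, 471 to 667 after SCL and 467 to 688 after ECL.

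The make-up of the lectican pool was set out as each gene's share of the 4 lecticans' summed TPM, a measure within a library that needs no scaling between libraries. Bcan made up 12.0% to 23.9% of the pool in controls, 28.9% to 40.1% after SCL and 29.5% to 36.3% after ECL. Ncan made up 73.3% to 84.0% in controls, 57.1% to 68.8% after SCL and 60.7% to 68.6% after ECL. Neither share overlapped between controls and a lesion group. Bcan and Ncan make up nearly all of the pool, so that a higher share of either goes with a lower share of the other. The shares are therefore not separate results. The TPM ratio of Bcan to Ncan was 0.326, 0.311, 0.322, 0.143 and 0.185 in controls. It was 0.420, 0.616, 0.702 and 0.596 after SCL. ECL cultures 1 to 4 had 0.582, 0.473, 0.431 and 0.598. The lowest lesioned culture, SCL replicate 1, thus stood above the highest control, control 1, and the lesion groups overlapped each other. These values describe the members and were not tested, since they restate the levels of Bcan and Ncan given above. Ncan itself was not called after ECL. How often ratios of other gene pairs separate in this way was not examined. Vcan held 1.79% to 3.63% of the pool in controls and 1.69% to 2.61% over the lesioned cultures, and Acan under 1% in each library. The pool as a whole summed to 126 to 167 TPM in controls (mean 149), 106 to 155 in the SCL group (mean 127) and 98.6 to 174 in the ECL group (mean 129), and these ranges overlapped.

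**Figure D3:**
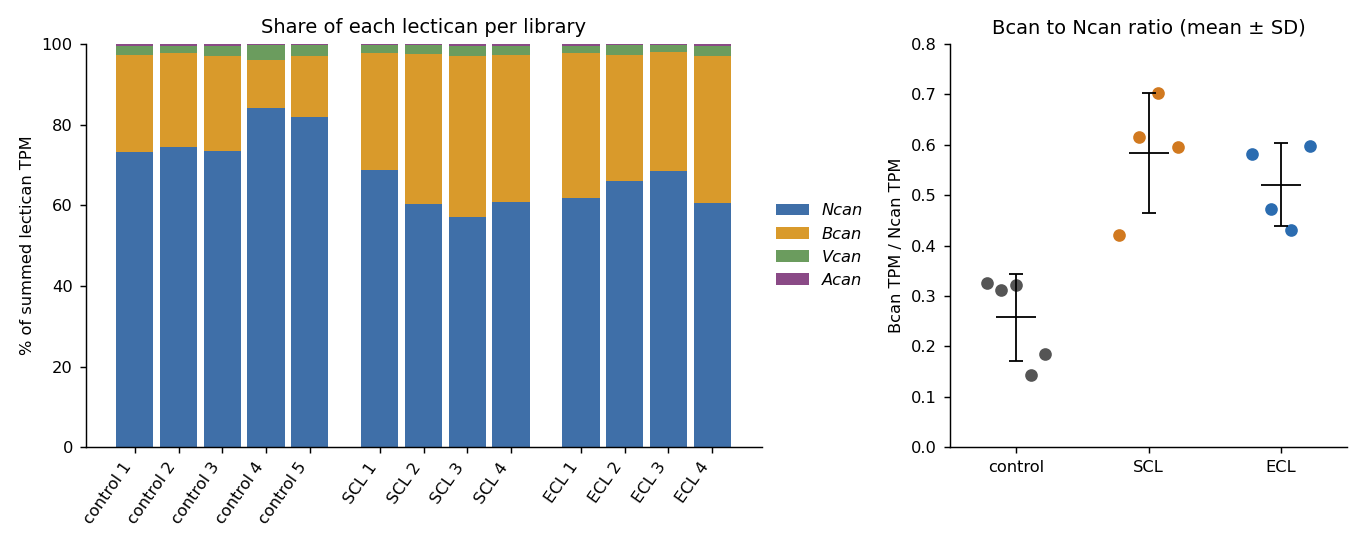
Left, stacked share (percent) of Ncan, Bcan, Vcan and Acan in the summed lectican TPM of each of the 13 libraries; right, the ratio of Bcan to Ncan TPM per library with mean and SD (n = 5, 4 and 4). The Bcan share is 12.0% to 23.9% in controls and at least 28.9% in each lesioned culture, and the ratio runs up to 0.326 in controls and from 0.420 upward after a lesion.

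The tenascins did not pass the test after either lesion. Tenascin-R, the trimeric partner that crosslinks lecticans in perineuronal nets and comes from oligodendrocytes and neurons, is encoded on chromosome 1 from 159523769 to 159931729. Tnr stood at 36.1, 32.5, 39.0, 28.9 and 39.9 CPM in controls. It stood at 26.1, 27.9, 32.9 and 25.9 CPM after SCL. Levels in the ECL cultures were 27.5, 38.6, 29.6 and 40.3 CPM. Of the SCL cultures 3 of 4 lay below every control, SCL replicate 3 lay inside the control range, and the ECL cultures spread over that whole range. The log2 fold change after SCL was -0.32 (95% interval -0.65 to 0.01, adjusted p = 0.140, edgeR) and after ECL -0.05 (95% interval -0.41 to 0.32, adjusted p = 0.869), where the ECL estimate turned positive under several scalings. With gene length and GC content offset they were -0.04 and 0.21. Of its exon bases 3.44% are shared with the antisense gene Gm38039, which counting without strand cannot tell apart.

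Tenascin-C, a glycoprotein of developing and injured tissue that astrocytes can secrete, is encoded on chromosome 4 from 63959785 to 64047015. Tnc stood at 10.7, 8.37, 13.7, 15 and 11.3 CPM in controls. SCL cultures had 9.29, 13.8, 11.1 and 15.7 CPM. After ECL it was 8.87, 11.3, 12.6 and 14.5 CPM. The 3 groups covered the same range. The log2 fold changes were 0.08 (95% interval -0.43 to 0.58, adjusted p = 0.838, edgeR) and 0.01 (95% interval -0.50 to 0.51, adjusted p = 0.989). Of its exon bases 2.26% are shared with the antisense gene 8030451A03Rik.

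The link proteins, with the non-member Hapln3 added, kept a nearly constant sum, at 36.4 ± 4.14 TPM in controls, 36.7 ± 4.37 after SCL and 36.5 ± 1.21 after ECL. Hapln1 and Hapln4 made up most of this sum, so that it says little about the scarce Hapln2 and Hapln3. Hapln1, the cartilage link protein that is also a constituent of perineuronal nets, is encoded on chromosome 13 from 89539796 to 89611652. It stood at 39.8, 46.8, 39.8, 41.5 and 47.8 CPM in controls. In SCL cultures it was 50.1, 41.1, 45.1 and 36.8 CPM. The ECL cultures had 50.6, 48.1, 38.5 and 41.1 CPM. It varied least between control cultures of the 10 genes (coefficient of variation 9.04%), and its log2 fold changes were 0.01 after SCL (95% interval -0.30 to 0.31, adjusted p = 0.983, edgeR) and 0.06 after ECL (95% interval -0.25 to 0.37, adjusted p = 0.808). A change of the size of that of Bcan lies outside both intervals.

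Hapln4, the brain link protein that accompanies brevican at inhibitory synapses, is encoded on chromosome 8 from 70083457 to 70090862. It stood at 19.3, 28.0, 32.0, 30.5 and 21.5 CPM in controls. It was 17.6, 19.2, 35.7 and 32.4 CPM after SCL. In the ECL cultures it reached 26.2, 26.9, 29.9 and 26.3 CPM. The SCL cultures split into a lower and a higher pair that lay at or beyond both ends of the control range, and the ECL cultures were close together. The log2 fold changes were -0.01 (95% interval -0.53 to 0.51, adjusted p = 0.989, edgeR) and 0.06 (95% interval -0.32 to 0.45, adjusted p = 0.825). Hapln2, a link protein of oligodendrocytes at nodes of Ranvier, is encoded on chromosome 3 from 88021750 to 88027583. It had 0 to 20 counts per library in controls, 18 to 65 after SCL and 8 to 22 after ECL. Scaled to depth the groups overlapped, at 0 to 1.34 CPM in controls, 0.669 to 1.72 after SCL and 0.316 to 0.956 after ECL. With edgeR's own filter its log2 fold change after SCL was 1.04 with a standard error of 0.85 (adjusted p = 0.422). After ECL it was 0.09 with a standard error of 0.87 (adjusted p = 0.958), and the data cannot place Hapln2.

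In the mouse genome each lectican gene is the neighbour of a link protein gene, with 0 coding genes between them. Ncan and Hapln4 lie 2.2 kb apart, Bcan and Hapln2 21.5 kb, Vcan and Hapln1 43.7 kb, and Acan and Hapln3 3 bases. After SCL the log2 fold change of Ncan was -0.53 and that of Hapln4 -0.01, and those of Vcan and Hapln1 were -0.46 and 0.01. After ECL they were -0.42 and 0.06 for Ncan and Hapln4, and -0.48 and 0.06 for Vcan and Hapln1. Hapln3, the fourth link protein gene, was under the minimum, at 0.711 ± 0.368 CPM in controls, 1.58 ± 0.614 after SCL and 0.933 ± 0.424 after ECL.

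Ptprz1, the receptor-type phosphatase whose secreted form is the proteoglycan phosphacan, binds tenascins and the growth factors pleiotrophin and midkine. It is encoded on chromosome 6 from 22875502 to 23052916. Ptprz1 stood at 482, 447, 389, 641 and 499 CPM in controls. SCL cultures had 406, 514, 414 and 518 CPM. ECL cultures 1 to 4 had 408, 492, 333 and 394 CPM. Control 4 was the highest of the 13 and ECL replicate 3 the lowest. The log2 fold changes were -0.08 (95% interval -0.42 to 0.25, adjusted p = 0.730, edgeR) and -0.26 (95% interval -0.62 to 0.09, adjusted p = 0.252), with signs that turned once gene length and GC content were offset (0.25 and 0.04).

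**Figure D4:**
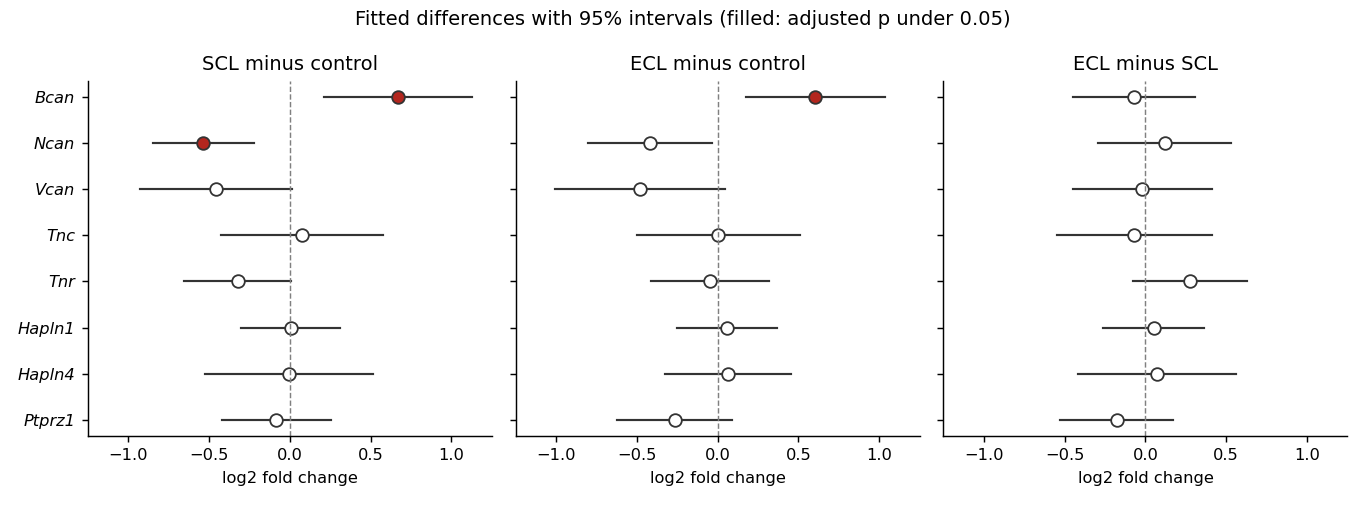
Fitted log2 fold change (points) and 95% interval (lines) of the 8 genes tested, for SCL against control, ECL against control and ECL against SCL; filled points have an adjusted p under 0.05 in edgeR. Bcan is filled in both lesion panels at 0.67 and 0.60, Ncan in the SCL panel at -0.53, and no gene in the ECL against SCL panel.

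Whether the lesioned pathway mattered was asked by setting ECL directly against SCL. Of the 8 genes, 0 were called, and so were 0% of all 12232 genes tested in edgeR, with 7.33% at an unadjusted p under 0.05. Over all genes DESeq2 called 65 of 12226, and edgeR called 54 of 12115 without SCL replicate 3 and 217 of 44182 without a filter on low counts. Of the 8, 0 reached an unadjusted p under 0.05 and DESeq2 called 0 of them. The groups overlapped for each of the 8, where 1.55% of all genes were higher and 2.27% lower in ECL without overlap. Tnr came closest, with a log2 fold change of 0.28 in ECL over SCL (standard error 0.16, 95% interval -0.08 to 0.63, adjusted p = 0.748, edgeR). For Bcan the difference was -0.07 (95% interval -0.45 to 0.31) and for Ncan 0.12 (95% interval -0.29 to 0.53). The call of Ncan after SCL and its absence after ECL is therefore no shown difference between the lesions. For the others the estimates ran from -0.18 (Ptprz1, 95% interval -0.53 to 0.17) to 0.07 (Hapln4, 95% interval -0.42 to 0.56). Genes outside the 8 that are named in this report as called after a single lesion were likewise not called by edgeR in this direct comparison.

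Genes that build, cut and bind this matrix were examined as lists. The counts called in all of these lists stand beside 24.9% of all genes tested after SCL (13.1% higher and 11.8% lower). After ECL the share was 27.8% (15.2% higher and 12.5% lower). Among 20 tested genes of chondroitin sulfate chain synthesis and sulfation, 1 was higher and 1 lower after SCL (median log2 fold change -0.03), and 1 was higher and 3 lower after ECL (median -0.07). Counting both directions, these 20 genes were called less often than all genes were after either lesion. Chst11, which sulfates chondroitin at the 4-O position, went from 14.6 ± 3.57 CPM in controls to 26.9 ± 4.11 after SCL and 26.7 ± 2.79 after ECL, with no overlap. Its log2 fold change was 0.88 after both (adjusted p = 0.0105 and 0.00705, edgeR). B4galt7, which adds the first galactose of the linker that joins the chain to the core protein, fell by 1.65 on the log2 scale after SCL and by 2.03 after ECL (adjusted p = 0.00315 and 0.000227), from 81.4 ± 34.7 CPM in controls. Chsy1, a chondroitin polymerase, and Dse, the epimerase that makes dermatan sulfate, fell after ECL (log2 fold changes -1.61 and -2.10, adjusted p = 0.00108 and 0.00144) and were at -0.65 and -1.02 after SCL (adjusted p = 0.180 and 0.0659). Directly against SCL, ECL gave -0.96 for Chsy1 and -1.07 for Dse (adjusted p = 0.521 and 0.384, edgeR), so that no difference between the lesions is shown. These 4 enzymes kept their signs in all 12 other settings after either lesion.

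Among the proteases that cut lecticans and their inhibitors, 8 were tested after SCL and 7 after ECL. Timp1, an inhibitor of metalloproteases induced by injury, rose after both. It stood at 10.4 ± 4.42 CPM in controls, 44.5 ± 15.6 after SCL and 37.0 ± 14.0 after ECL (log2 fold changes 2.09 and 1.83, adjusted p = 0.00213 and 0.00144, edgeR). It was the only gene of the list called after SCL, at a list median of 0.05. Adamts1, a lectican-cleaving protease, was lower after ECL (log2 fold change -0.73, adjusted p = 0.0135) and at -0.44 after SCL (adjusted p = 0.0936). Adamts4, the protease best known for cutting brevican, stood at 15.5 ± 6.34, 13.7 ± 3.61 and 15.4 ± 3.78 CPM in controls, SCL and ECL, with adjusted p-values of 0.722 and 0.997. Adamts5 was under the minimum, with 5.16 ± 1.89 CPM in controls, 3.08 CPM after SCL (SD 1.1) and 2.81 ± 0.859 after ECL.

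Of 14 tested ligands and receptors, 1 was higher and 1 lower after each lesion, and they were the same genes. Of all genes tested, 24.9% were called after SCL and 27.8% after ECL. Mdk, the growth factor midkine that binds Ptprz1 and chondroitin sulfate, rose from 42.1 ± 12.4 CPM to 80.2 ± 5.26 after SCL and 79.4 ± 12.1 after ECL (log2 fold changes 0.93 and 0.92, adjusted p = 0.00708 and 0.00539, edgeR). Ptn, which encodes the related pleiotrophin, was far more abundant, at 870 ± 237 CPM, with log2 fold changes of 0.30 and 0.29 that did not pass (adjusted p = 0.289 and 0.280). Ncam1, a neural adhesion molecule that binds neurocan and Ptprz1, fell from 501 ± 143 CPM to 255 ± 34.7 and 237 ± 34.4 (log2 fold changes -0.97 and -1.07, adjusted p = 0.00517 and 0.00177). Cntn1, the contactin bound by Ptprz1 and Tnr, was at -0.14 and -0.62 (adjusted p = 0.756 and 0.0873), and Ptprs, a receptor for chondroitin sulfate chains, at -0.20 and -0.04 (adjusted p = 0.232 and 0.861). The list medians were -0.15 and -0.09.

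Of 8 other matrix proteoglycans and tenascins tested after SCL and 7 after ECL, Spock1, a testican, was lower after both (log2 fold changes -0.65 and -1.01, adjusted p = 0.0248 and 0.00769, edgeR) and none was higher. Cspg4, the NG2 proteoglycan of oligodendrocyte precursors, was at -0.36 and -0.31, and Cspg5, neuroglycan C, at 0.28 and 0.16, with adjusted p-values from 0.138 to 0.398. Of the hyaluronan genes, 3 were tested after SCL and 2 after ECL. Hmmr, a hyaluronan receptor that also serves in the mitotic spindle, rose after SCL (log2 fold change 1.18, adjusted p = 0.0128) and was under the minimum in the ECL comparison. Cemip2, a cell surface hyaluronidase, was lower after ECL (log2 fold change -0.58, adjusted p = 0.0408), a call that held in 4 of 12 other settings. Cd44, the main hyaluronan receptor, was at 0.41 and 0.29 (adjusted p = 0.0566 and 0.266). The hyaluronan synthases were scarce, with Has2 at 1.89 ± 1.14 and Has3 at 2.86 ± 1.14 CPM in controls.

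**Figure D5:**
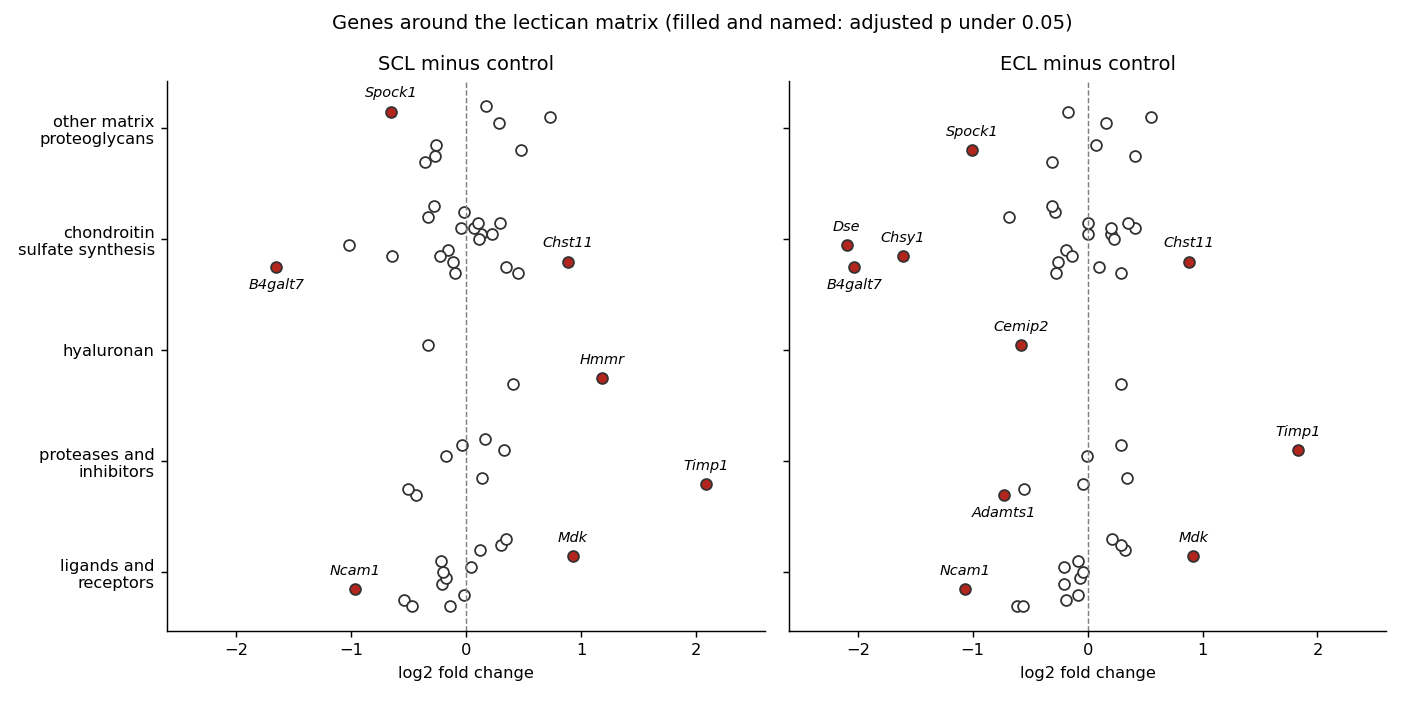
Log2 fold change of each tested gene in 5 lists around the lectican matrix, SCL against control on the left and ECL against control on the right; filled, named points have an adjusted p under 0.05 in edgeR, and height within a list carries no value. Chst11, Timp1 and Mdk stand right of 0 and B4galt7, Spock1 and Ncam1 left of 0 in both panels, while most points are open and near 0.

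The genes most like each member across libraries were sought by Pearson's r of log2 CPM over 13 libraries among 11105 genes. These are descriptions, since the points share libraries, depth and the lesion groups. Bcan was most like Camk2g, a CaM kinase subunit (r = 0.972), and Scap, a sterol sensor (0.965). Ncan was most like Limch1 (0.929) and Ybx3 (0.920), and Vcan most like Afap1 (0.949) and Hnrnpul1 (0.936). The highest values were 0.942 for Ptprz1 (Erbin, then Nr1d2 at 0.934), 0.917 for Hapln1 (4921524J17Rik, then Nop56 at 0.898) and 0.889 for Tnr (Katnal1, then Fam114a1 at 0.888). They were 0.867 for Hapln4 (Lhx2, then Gm12918 at 0.848) and 0.832 for Tnc (Fat3, then Gm10136 at 0.776). Between members, r ran from -0.780 for Tnc and Hapln1 to 0.717 for Ncan and Vcan, and it was -0.504 for Bcan and Ncan.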

How the data were processed

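RNA from 13 CA1 isolates was amplified with the NEBNext Single Cell/Low Input kit and read in pairs of 150 bp on a NovaSeq6000. The authors trimmed reads with cutadapt 3.5, mapped them with STAR 2.7.8a to mm10 (GRCm38) and counted them with featureCounts 2.0.1 on GENCODE M25 genes without strand, and the authors deposited raw counts per gene symbol. Among counts of 1 to 20, even numbers made up 63.0% to 74.3% per library. Mates of a pair were therefore apparently counted apart, which inflates depth. Every sample column was used.

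Each comparison was fitted by itself in edgeR 4.0.16 (R 4.3.3; glmQLFit, glmQLFTest, TMM factors over genes tested, two-sided, Benjamini-Hochberg over all genes tested, threshold 0.05), with a mean normalized count minimum of 150. CPM for display share TMM factors over the 13 libraries. TPM used merged exon lengths of GENCODE M21, in which 53180 symbols matched a gene. Coordinates are from the same annotation. Promoters are from RefSeq (GRCm38.p6), in which 9 of the 10 genes matched by symbol. The code was tested on simulated data. The members, lists and tests were chosen with earlier results of these data known. Named genes are the 10 members, 15 fixed matrix genes, up to 3 called genes per list with the smallest adjusted p, and the 2 genes most like each member. Alternatives were DESeq2 1.42.0, other scalings and filters, a joint fit, blocks, a sex term, a length and GC offset (mgcv 1.9.3), halved counts and leaving out each library.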

Additional observations from a re-analysis of the deposited data

How the results depend on the processing

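Of the 2 members called after SCL, 1 was called with TMM over all symbols, without a filter on low counts, and with the replicate block with a length and GC offset (Bcan in each). Of the 1 called after ECL, 0 were with a sex term. With the replicate number as a block, 1 was called after SCL (Bcan at 0.61, adjusted p = 0.0559 in edgeR, lost) and 0 after ECL (Bcan at 0.55, adjusted p = 0.0746). The same counts came with the number of the column headings as a block, an alternative chosen after seeing the data. Replicate numbers did not pair the cultures throughout. Correlations of same-numbered deviations ran from -0.10 to 0.25 for SCL and from -0.18 to 0.44 for ECL with controls. Between ECL and SCL they ran from -0.15 to 0.55, with the highest value for replicate 1. Leaving out a library gave 0 to 2 members called after SCL and 0 to 1 after ECL. Against SCL, ECL had 0 in all settings. The cause of these losses was not tested.

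Over all genes, no filter gave 5390 calls for SCL in place of 2848 and 8034 for ECL in place of 3114, the heading block gave 1824 after SCL, and leaving out SCL replicate 3 gave 1679. TMM over all symbols made 2516 of 3112 calls after SCL and 2435 of 3130 after ECL higher, against 1504 of 2848 and 1708 of 3114.

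Bcan and Ncan kept their signs against controls in every setting. Estimates that turned sign were all uncalled. With DESeq2 these were Hapln4 after SCL (0.07) and, after ECL, Tnr (0.01), Adamts4 (0.05) and Ptprs (0.01). With TMM over all symbols and without a filter (the same values to 2 decimals unless both are given) they were, after SCL, Hapln4 (0.20), Ptprz1 (0.12), Cntn1 (0.07), Adamts4 (0.03) and Ptprs (0.01 and 0.005), and, after ECL, Tnr (0.13), Adamts4 (0.17) and Ptprs (0.14). With filterByExpr they were Hapln4 after SCL (0.06), and Tnr (0.02), Adamts4 (0.06) and Ptprs (0.02) after ECL. With the length and GC offset they were Ptprz1 (0.25), Cntn1 (0.10) and Ptprs (0.11) after SCL, and Tnr (0.21), Hapln4 (-0.06), Ptprz1 (0.04) and Ptprs (0.13) after ECL. With the offset and replicate block together they were Ptprz1 (0.24), Cntn1 (0.16) and Ptprs (0.17) after SCL, and Tnr (0.25), Hapln4 (-0.07), Ptprz1 (0.04), Adamts4 (0.18) and Ptprs (0.20) after ECL. With the replicate block alone they were Adamts4 after SCL (0.01) and, after ECL, Adamts4 (0.19) and Pou3f1 (-0.08), and with the heading block Adamts4 after SCL (0.003) and, after ECL, Tnc (-0.004), Adamts4 (0.19) and Pou3f1 (-0.04). With the sex term they were Hapln1 after SCL (-0.01), Pou3f1 after ECL (-0.18), and Ncan (-0.06) and Hapln4 (-0.05) in ECL against SCL. After ECL, a joint fit turned Tnc (-0.003), RLE factors Adamts4 (0.001) and halved counts Adamts4 (0.02).

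Leaving out a library turned some. After SCL, estimates ran from -0.05 to 0.20 for Tnc, -0.07 to 0.08 for Hapln1, -0.19 to 0.15 for Hapln4, -0.15 to 0.02 for Ptprz1 and -0.39 to 0.08 for Cntn1. After ECL they ran from -0.10 to 0.13 for Tnc, -0.13 to 0.05 for Tnr, -0.03 to 0.14 for Hapln4, -0.18 to 0.17 for Adamts4, -0.13 to 0.06 for Ptprs and -0.28 to 0.29 for Pou3f1. In ECL against SCL they ran from -0.19 to 0.02 for Bcan, -0.07 to 0.24 for Ncan, -0.14 to 0.13 for Vcan, -0.19 to 0.06 for Tnc, -0.01 to 0.13 for Hapln1 and -0.07 to 0.26 for Hapln4.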
